A study of Mus musculus with 4 samples.

Results

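The core spliceosome components described here are 39 protein-coding genes, chosen by name: the proteins of the small nuclear ribonucleoproteins (snRNPs), the U2AF and SF3 splicing factors, the PRP proteins and a few associated RNA-binding proteins. All 39 were found among the 37224 genes of the count tables, and all 39 passed the filter on low counts that left 20895 genes for testing. The RNA came from embryonic stem (ES) cells of the mouse, in 2 genotypes, wild type (called normal in the sample titles) and Smg6 deficient, with 2 libraries each. No treatment, age or cell line is named in the labels, and the way in which Smg6 was inactivated is not given. The labels do not say whether the libraries of a genotype came from separate cultures, so each p-value reflects only how far these libraries scatter, and that scatter may be technical.

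The product of Smg6 cuts mRNAs in nonsense-mediated decay (NMD), which destroys mRNAs whose stop codon lies well upstream of an exon junction. The spliceosome removes introns from precursor mRNA. The U1 snRNP recognises the 5′ splice site, SF1 and the U2AF dimer recognise the branch point and the 3′ splice site, and the U2 snRNP with its SF3a and SF3b complexes then pairs with the branch point. The U4/U6.U5 tri-snRNP joins next and is remodelled into the catalytic machine. The snRNPs other than U6 carry a ring of Sm proteins around their RNA. Some genes of splicing factors give transcripts with an early stop codon, which NMD degrades.

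Such transcripts are annotated for 17 of the 39 core genes (35 transcripts in GENCODE M21, assembly GRCm38, the build that mm10 names). In 9 of these genes, at least 1 such transcript has its stop codon in an exon that no annotated coding transcript of the gene uses. One transcript of each is shown because an early stop upstream of an exon junction is what marks an mRNA for NMD. The last 30 bases of reading frame are printed 5′ to 3′ in the sense of the mRNA, in DNA letters, with the stop codon in capitals. The genes that rose in Smg6-deficient cells come first, then those that fell, then those that did not pass the test.
Prpf39-202: aacattaaacaatcagatgaggtgcgtTAA
Prpf38b-204: gtggtggacgagatctactttaaggatTGA
Prpf3-203: gagttccaggaagcgctcgcccctggcTGA
Sf3b1-208: tttgcagatggcttctattctgctgctTGA
Snrpa-204: agatcatattcaggtcgtgaaggcttgTGA
Snrpb-203: tggcctcattacctatttgtaaagctgTAG
Rbm39-225: tttgattccagtgtgaactgtcaatcaTAA
Snrnp70-204: cactccaccacgcagctggcttgcagcTGA
U2af1-209: cacaataaaccaacctttagccagcacTGA

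The Prpf39 stop lies at chr12:65043549-65043551 on the plus strand, in a 69-base exon that is exon 4 of 17. The other stops lie on the minus strand. Those of Prpf38b and Prpf3 are at chr3:108910390-108910392 and chr3:95849761-95849763, in exons of 53 and 96 bases. Those of Sf3b1 (chr1:55014905-55014907) and Snrpa (chr7:27194161-27194163) are in exons of 56 and 123 bases. The stops of Snrpb, Rbm39, Snrnp70 and U2af1 are at chr2:130176695-130176697, chr2:156178881-156178883, chr7:45383159-45383161 and chr17:31651803-31651805. From stop to last exon junction, the spliced distance in these 9 transcripts ranged from 116 bases in Sf3b1-208 to 1766 bases in Prpf39-202. All 8 annotated NMD transcripts of Rbm39 had their stop in an exon of this kind. The deposited counts are per gene and do not separate these transcripts from the coding ones.

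The 4 libraries held 130888768 to 155391181 gene counts. Smg6 itself counted 100.4 ± 6.69 CPM (counts scaled to library size with TMM factors; mean ± SD, n = 2) in wild type against 86.9 ± 0.98 CPM in the deficient libraries, with a log2 fold change of -0.21 and an edgeR adjusted p of 0.0886. When the trend with gene length was removed, Smg6 passed as lower, at -0.33 (edgeR adjusted p = 0.0142), and it did so at -0.34 when GC content was added (edgeR adjusted p = 0.0114). A count over the whole gene does not check the loss of a part of it. The marker lists that follow were chosen with earlier results of these data known. Over all tested genes, 20.5% rose and 19.2% fell. Of 10 ES cell markers, 6 fell and 2 rose. Their summed level was 5296 and 4558 CPM in the wild-type against 3535 and 3437 CPM in the Smg6-deficient libraries. Of 10 endoderm markers, all 10 rose, with sums of 372 and 334 against 1519 and 2372 CPM. Of 10 fibroblast markers, 3 rose, where 20.5% of all tested genes did, and 0 fell (0 also at an unadjusted edgeR p under 0.05, and 0 by DESeq2 and limma-voom). With the length correction 0 of the 10 rose (2 at an unadjusted edgeR p under 0.05), without wild-type replicate 1, 7 did, without wild-type replicate 2, 3 rose and 1 fell, and with upper-quartile factors or library size alone 1 rose. Their sums were 1043 and 775 CPM in the wild-type against 1278 and 1167 CPM in the Smg6-deficient libraries. The part of these shifts in the spliceosome values was not tested, and in bulk RNA fewer cells of a type and less RNA per cell cannot be told apart.

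Of the 39 core genes, 13 rose and 7 fell in Smg6-deficient cells (edgeR quasi-likelihood test, Benjamini-Hochberg adjusted p under 0.05), and 19 did not pass the test. That is 33.3% higher and 17.9% lower, where 20.5% of all tested genes were higher, 19.2% lower and 39.7% past the threshold in either direction. The median log2 fold change was 0.10 over the core genes and 0.01 over all tested genes. The changes were small: the log2 fold changes ran from -0.49 to 0.69. None of the 39 reached 2-fold, which 15.4% of all tested genes did, and Sf3b3 and Prpf31 alone exceeded 1.5-fold. The libraries of the genotypes did not overlap in 30 of the 39 core genes, 18 above and 12 below, against 73.2% of all tested genes. Of the 20895 tested genes, 7791 lay above and 7510 below in this way. By role, 0 of 7 Sm ring genes rose and 4 fell, whereas 6 of 8 U5 and tri-snRNP genes rose and 0 fell. At an unadjusted edgeR p under 0.05 these zero counts remained 0. By limma-voom they were also 0, and likewise by DESeq2.

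Single libraries and the scaling moved these counts. Calls over all tested genes moved as well. They became fewer without either Smg6-deficient library and more numerous without either wild-type library, with the ranges given below. Without Smg6-deficient replicate 1, Sf3b3, Prpf4, Prpf31 and Snrnp48 were higher and Snrpe lower, 4 and 1 of the 39. Without Smg6-deficient replicate 2, Sf3b3, Prpf4 and Prpf31 were higher and 0 core genes lower (8 higher and 3 lower at an unadjusted edgeR p under 0.05; no other tool was run on 3 libraries). Without wild-type replicate 1, 16 were higher and 6 lower, and Snrpd1 was no longer among them. Without wild-type replicate 2, 13 were higher and 12 lower, and all 7 Sm genes and Snrnp40 were among the lower ones. When counts were scaled by library size alone, 10 core genes were higher and 9 lower, so that 52.6% of the calls were higher in place of 65.0%. Over 18 alternative analyses, Sf3b3 and Prpf4 passed the test in 18, Prpf31, Snrnp200 and Snrnp48 in 16, and Prpf8, Prpf38b and Snrpb2 in 15. Snrpe, Prpf39 and Sf3a1 passed in 14, Prpf3, Sf3b1 and Snrpa in 13, Snrpf in 12, Prpf6 in 11, Snrpd2 in 10, U2af2 in 9, Snrpd1 in 8 and Son in 7.

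**Figure D1:**
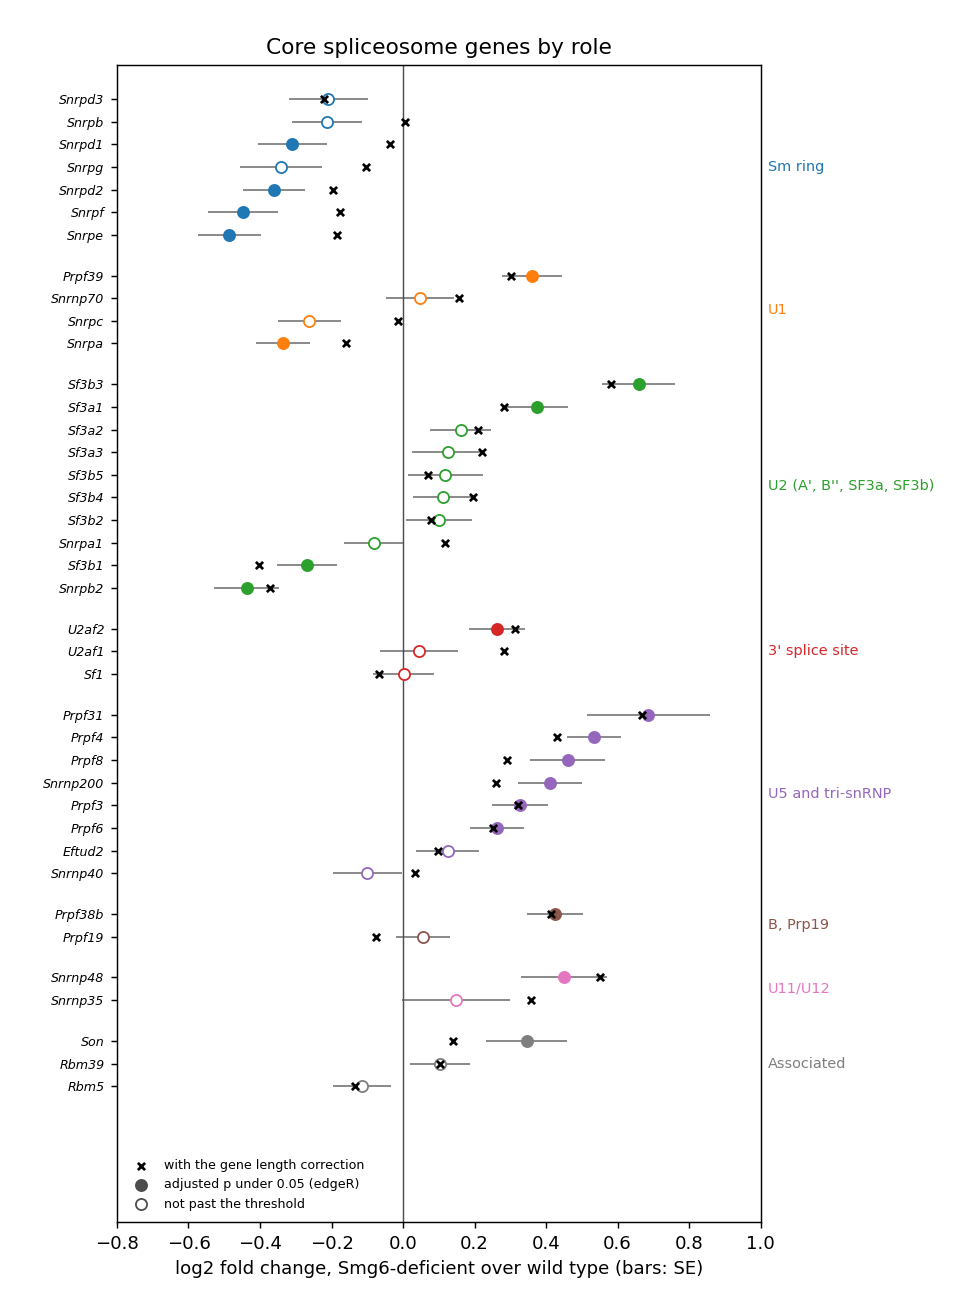
Log2 fold change of each core spliceosome gene, Smg6-deficient over wild type (circles, edgeR; bars, SE; filled where the adjusted p was under 0.05), grouped by role; crosses give the value with a correction for gene length. All 7 Sm ring genes sit left of 0 before the correction, and Prpf31 and Sf3b3 lie farthest right, at 0.69 and 0.66.

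The 7 Sm proteins form the ring shared by the spliceosomal snRNPs. All 7 of their genes had lower CPM in both Smg6-deficient libraries than in either wild-type library. Among all tested genes, 73.2% had no overlap between the genotypes, in one direction or the other, and 7510 of the 20895 lay below in this way. Snrpe, Snrpf, Snrpd2 and Snrpd1 passed the test as lower, where 19.2% of all tested genes did. The median log2 fold change of the 7 was -0.34. Their summed level was 728 and 634 CPM in the wild-type and 579 and 541 CPM in the Smg6-deficient libraries.

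Snrpe (chr1:133603871-133610291) measured 79.1 and 71.7 CPM in the wild-type and 55.7 and 52.0 CPM in the Smg6-deficient libraries. This was the largest fall among the 39 genes, 1.40-fold lower (log2 fold change -0.49, SE 0.09, adjusted p = 0.00636 by edgeR). Snrpf measured 27.1 and 24.4 against 19.0 and 18.7 CPM. Both Smg6-deficient values lay below both wild-type values (log2 fold change -0.45, SE 0.10, adjusted p = 0.0121 by edgeR). Snrpf has 861 exonic bases, and exons of Ccdc38 and 4933408J17Rik on the other strand overlap them by 735 bases summed over both genes. A base under both genes is counted for each, and the library kit does not mark strand. Ccdc38 itself had a mean of 9.39 CPM in wild type against 6.77 CPM in the Smg6-deficient libraries (n = 2 each).

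Snrpd2 measured 89.9 and 82.9 CPM in the wild-type libraries and 69.8 and 64.8 CPM in the Smg6-deficient ones, again without overlap (log2 fold change -0.36, SE 0.09, adjusted p = 0.0167 by edgeR). Snrpd1, which pairs with Snrpd2 in the ring, measured 94.4 and 82.2 against 73.9 and 68.6 CPM. Its fall was near the threshold (log2 fold change -0.31, SE 0.10, adjusted p = 0.0427 by edgeR). By deposited RPKM, which rests on the authors' gene length, Snrpd3 had the highest mean of the 39 genes, 213 ± 40.0 in wild type (mean ± SD, n = 2). In counts it measured 164 and 134 CPM in the wild-type libraries and 133 and 125 CPM in the Smg6-deficient ones, so that the closest libraries almost met (edgeR adjusted p = 0.180). Snrpb and Snrpg did not pass the test either, with log2 fold changes of -0.21 and -0.34 and edgeR adjusted p of 0.127 and 0.0523. Snrpg was called lower by the DESeq2 Wald test (adjusted p = 0.0319), and by edgeR with upper-quartile factors, library size alone, the 50-count filter or without wild-type replicate 2. With the length correction Snrpg was -0.10.

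The Sm genes are short, with longest coding transcripts of 669 to 1420 bases apart from Snrpd3 (3036 bases). Over all tested genes the median log2 fold change was -0.21 in the eighth with the shortest transcripts (36 to 764 bases) and 0.18 in the eighth with the longest (5565 bases or more). With a correction that removes this trend from each library, 0 of the 7 Sm genes passed the edgeR test, and 0 had an unadjusted p under 0.05. Their corrected log2 fold changes were -0.20 for Snrpd2, -0.19 for Snrpe, -0.18 for Snrpf and -0.04 for Snrpd1, with a median of -0.18 over the 7. With the gene length that the authors' values imply used in its place, 1 of the 7 passed as lower, Snrpe at -0.29 (edgeR adjusted p = 0.0456). Snrpd3 was then 0.096, and the median over the 7 was -0.06. Within both genotypes, replicate 1 exceeded replicate 2 in 7 of 7 Sm genes, with a median log2 ratio of 0.18 in wild type and 0.10 in Smg6-deficient cells. It also did so in 29 and 30 of the 39 core genes, with medians of 0.11 and 0.06.

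Of the 4 U1 snRNP genes, 1 rose and 1 fell, 25% in each direction beside 20.5% and 19.2% of all tested genes. Snrpa, which encodes a U1 protein that binds U1 RNA, fell from 95.2 and 96.5 CPM to 77.3 and 74.7 CPM. The replicates of each genotype lay close together (log2 fold change -0.33, SE 0.08, adjusted p = 0.0137 by edgeR). With the length correction it was -0.16 and no longer passed (edgeR adjusted p = 0.139). Exons of BC024978, which had a log2 fold change of -0.33, cover 327 of its 2964 exonic bases on the other strand. Snrpc, whose product stabilises pairing at the 5′ splice site, had a log2 fold change of -0.26 and an edgeR adjusted p of 0.0554. It was called lower by the DESeq2 Wald test (adjusted p = 0.0430), and by edgeR with upper-quartile factors, library size alone or the 50-count filter. Without wild-type replicate 2 it was -0.30. With the length correction, on its longest coding transcript of 1013 bases, it was -0.01. With the authors' implied length of 7332 bases it was -0.37 and passed as lower (edgeR adjusted p = 0.0207).

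Prpf39 (chr12:65036333-65063386), a U1-associated factor, rose from 147 and 134 CPM to 176 and 184 CPM. Both Smg6-deficient libraries exceeded both wild-type libraries (log2 fold change 0.36, SE 0.09, adjusted p = 0.0160 by edgeR). Fkbp3, whose exons cover 599 of the 11967 exonic bases of Prpf39 on the other strand, moved the opposite way, with a log2 fold change of -0.37. Snrnp70, the U1-70K protein and the highest of the U1 genes per length at 174 ± 18 RPKM in wild type, measured 352 and 323 CPM in the wild-type libraries and 369 and 329 CPM in the Smg6-deficient ones. These values overlapped (edgeR adjusted p = 0.711).

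Among the 10 genes of U2 proteins, SF3a and SF3b, 2 rose and 2 fell, 20% in each direction beside 20.5% and 19.2% of all tested genes, with a median log2 fold change of 0.12. Sf3b3 (chr8:110810239-110846787), a scaffold of the SF3b complex that grips the branch point, had the largest rise of this group. It measured 498 and 440 CPM in the wild-type libraries and 779 and 703 CPM in the Smg6-deficient ones. That is 1.58-fold higher (log2 fold change 0.66, SE 0.10, adjusted p = 0.0034 by edgeR). Exons of Cog4, which had a log2 fold change of 0.48, cover 188 of its 10919 exonic bases on the other strand. Sf3a1, the largest SF3a subunit, measured 250.5 and 233 CPM against 325 and 302 CPM. It also rose without overlap (log2 fold change 0.38, SE 0.09, adjusted p = 0.0147 by edgeR).

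Sf3b1 (chr1:54985169-55027481), the SF3b subunit that encloses the branch-point adenosine, moved the other way from its partner Sf3b3. It measured 614 and 644 CPM in the wild-type libraries and 535 and 509 CPM in the Smg6-deficient ones. The fall was small (log2 fold change -0.27, SE 0.08, adjusted p = 0.0423 by edgeR), and with the length correction the log2 fold change was -0.40. Snrpb2, a U2 protein that binds U2 RNA with Snrpa1, measured 97.1 and 84.8 CPM against 66.5 and 67.8 CPM. It fell without overlap (log2 fold change -0.44, SE 0.09, adjusted p = 0.0105 by edgeR). With the length and GC correction Snrpb2 was -0.15 and did not pass (edgeR adjusted p = 0.212). Of the other U2 genes, Snrpa1, which encodes the U2 partner of Snrpb2, had a log2 fold change of -0.08. Sf3a2, Sf3a3, Sf3b2, Sf3b4 and Sf3b5 had values from 0.10 to 0.16, and none of the 6 passed the test (edgeR adjusted p from 0.179 to 0.473). Sf3a3 passed as higher with the length and GC correction, at 0.33 (edgeR adjusted p = 0.0296). It also passed with the length correction and replicate block together, at 0.23 (edgeR adjusted p = 0.0468). Sf3b5 passed as higher with the authors' implied length, at 0.42 (edgeR adjusted p = 0.0367). Sf3b2, the highest of the U2 genes per length at 99.1 ± 12.2 RPKM in wild type, measured 392 and 350 CPM against 411 and 385 CPM.

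Recognition of the 3′ splice site rests on Sf1, which binds the branch point, and on the U2AF dimer. U2af2, the large subunit that binds the polypyrimidine tract, rose from 137 and 135 CPM to 168 and 158 CPM. The gap between genotypes exceeded the gap between replicates (log2 fold change 0.26, SE 0.08, adjusted p = 0.0359 by edgeR). U2af2 did not pass with the length and GC correction, at 0.19 (edgeR adjusted p = 0.0786), nor with upper-quartile factors, library size alone, the 50-count filter or no filter on low counts. U2af1, the small subunit that reads the terminal AG, had a log2 fold change of 0.04 (edgeR adjusted p = 0.769). With the length correction and replicate block together U2af1 passed as higher, at 0.29 (edgeR adjusted p = 0.0471). Sf1 measured 562 and 574 CPM in the wild-type libraries and 590 and 548 CPM in the Smg6-deficient ones. The Smg6-deficient pair spanned the wild-type pair, and the log2 fold change was 0.00 with an SE of 0.08 (edgeR adjusted p = 0.990).

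Of the 8 U5 and tri-snRNP genes, 6 rose and 0 fell, 75% and 0% beside 20.5% and 19.2% of all tested genes. Without either Smg6-deficient library in turn, 2 of the 8 were higher (Prpf4 and Prpf31), and without wild-type replicate 2, Snrnp40 was lower (log2 fold change -0.22, edgeR adjusted p = 0.0365). Their median log2 fold change was 0.37, against 0.01 over all tested genes. Prpf8 (chr11:75486816-75509449), the protein at the heart of the catalytic centre, measured 641 and 753 CPM in the wild-type libraries and 980.5 and 939 CPM in the Smg6-deficient ones. It rose 1.38-fold (log2 fold change 0.46, SE 0.10, adjusted p = 0.0139 by edgeR). Snrnp200, the helicase that unwinds U4 from U6, measured 393 and 435 CPM against 562 and 539 CPM. Its libraries were as well separated (log2 fold change 0.41, SE 0.09, adjusted p = 0.0122 by edgeR).

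Prpf4 (chr4:62408797-62426990), a U4/U6 protein, had the smallest adjusted p of the 39 genes. It measured 110 and 107 CPM in the wild-type libraries and 157 and 157 CPM in the Smg6-deficient ones. It rose 1.45-fold with almost no spread between replicates (log2 fold change 0.53, SE 0.08, adjusted p = 0.00237 by edgeR). Prpf3, which binds Prpf4 in the U4/U6 particle, measured 93.5 and 98.0 against 117 and 123 CPM. Its rise was smaller (log2 fold change 0.33, SE 0.08, adjusted p = 0.0169 by edgeR).

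Prpf31 (chr7:3629985-3642486), which bridges U4 and the tri-snRNP, had the highest fold change of the 39 genes in the 4 libraries and the widest spread. It measured 72.5 and 49.0 CPM in the wild-type libraries and 99.4 and 96.2 CPM in the Smg6-deficient ones. Both Smg6-deficient libraries were higher, but the wild-type libraries stood far apart, so that the 1.61-fold rise had a large error (log2 fold change 0.69, SE 0.17, adjusted p = 0.0197 by edgeR). Without wild-type replicate 1 the log2 fold change was 1.00 and without wild-type replicate 2 it was 0.41, so that its size depends on the wild-type library. Sf3b3, from 0.55 to 0.76 over the alternatives, varied less, and it exceeded Prpf31 without wild-type replicate 2 and without Smg6-deficient replicate 2. Exons of Gm15927 cover 984 of its 5439 exonic bases on the other strand, and that gene had means of 4.65 CPM in the wild-type libraries and 7.48 CPM in the Smg6-deficient ones. Prpf6, a tri-snRNP bridging protein, measured 147 and 143 against 175 and 173 CPM (log2 fold change 0.26, SE 0.07, adjusted p = 0.0314 by edgeR). Eftud2, the U5 GTPase, and Snrnp40, a U5 WD-repeat protein, did not pass the test, with log2 fold changes of 0.12 and -0.10 and edgeR adjusted p of 0.297 and 0.447. Snrnp40 was the highest of this group per length, at 95.6 ± 14.0 RPKM in wild type, and measured 188 and 163 CPM against 169 and 158 CPM.

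**Figure D2:**
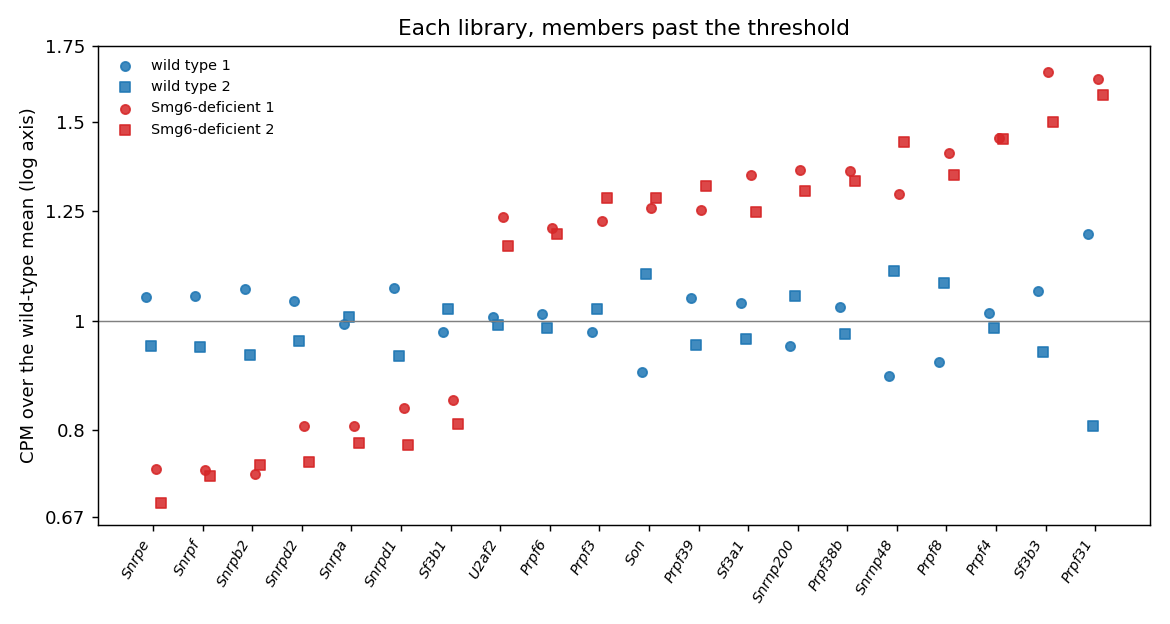
CPM of each library divided by the wild-type mean of the gene (log axis) for the 20 core genes past the threshold, ordered by fold change; blue marks wild type and red Smg6 deficient, circles replicate 1 and squares replicate 2. The red and blue points of a gene do not overlap, and the wild-type points of Prpf31 (72.5 and 49.0 CPM) lie farthest apart.

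Prpf38b, related to a B complex protein that activates the spliceosome, rose from 158 and 150 CPM to 208 and 204 CPM. The replicates lay close together (log2 fold change 0.43, SE 0.08, adjusted p = 0.00621 by edgeR). Prpf19, the ubiquitin ligase of the activated spliceosome, had a log2 fold change of 0.06 (edgeR adjusted p = 0.588). Of the 2 genes of the minor spliceosome, which removes a rare class of introns, Snrnp48 rose from 51.5 and 63.8 CPM to 74.5 and 82.9 CPM. The libraries of the genotypes did not overlap, although the replicates spread (log2 fold change 0.45, SE 0.12, adjusted p = 0.0254 by edgeR). Snrnp35 had one of the lowest levels, 5.98 ± 1.35 RPKM in wild type, and a log2 fold change of 0.15 (edgeR adjusted p = 0.470). With the length correction and replicate block together Snrnp35 passed as higher, at 0.37 (edgeR adjusted p = 0.0418).

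Son, a nuclear speckle protein needed for splicing of weak introns, measured 602 and 735 CPM in the wild-type libraries and 841 and 859 CPM in the Smg6-deficient ones. It was just past the threshold (log2 fold change 0.35, SE 0.11, adjusted p = 0.0491 by edgeR). Son has the longest transcript of the 39 genes, 8731 bases, and with the length correction its log2 fold change was 0.14 (edgeR adjusted p = 0.243). Rbm39, a U2AF-related protein and the highest of the associated genes per length at 57.1 ± 0.80 RPKM, measured 451 and 470 CPM against 479 and 510 CPM. Its libraries did not overlap, yet the difference did not pass the test (log2 fold change 0.10, edgeR adjusted p = 0.366). With the length and GC correction Rbm39 passed as higher, at 0.24 (edgeR adjusted p = 0.0457). With the authors' implied length it was -0.022. Rbm5, a regulator of alternative exons, had a log2 fold change of -0.11 (edgeR adjusted p = 0.298).

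Levels per length spanned a wide range, from 213 RPKM for Snrpd3 to 4.58 RPKM for Snrpc in wild type. Snrnp70 followed Snrpd3 at 174 RPKM. Snrpd3 was above Snrnp70 in both wild-type libraries (241.55 against 186.37 and 184.96 against 160.95 RPKM). In Smg6-deficient replicate 1 it was not (188.12 against 188.63 RPKM). Snrpd2 at 122 ± 12.3 and Snrpb at 105 ± 14.8 RPKM came next, and Snrpd2 was above Snrpb in every library. Prpf8, Sf3b1, Sf3b2 and Sf3b3 lay together between 80.3 and 99.1 RPKM, and Prpf31, Snrnp35 and Snrpc were the only genes under 10 RPKM. The RPKM order depends on the gene length that the authors used. With the gene counts taken as library size, the deposited counts and RPKM values imply 7332 bases for Snrpc, whose longest coding transcript has 1013, and 713 bases for Snrpd3, whose longest has 3036.

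**Figure D3:**
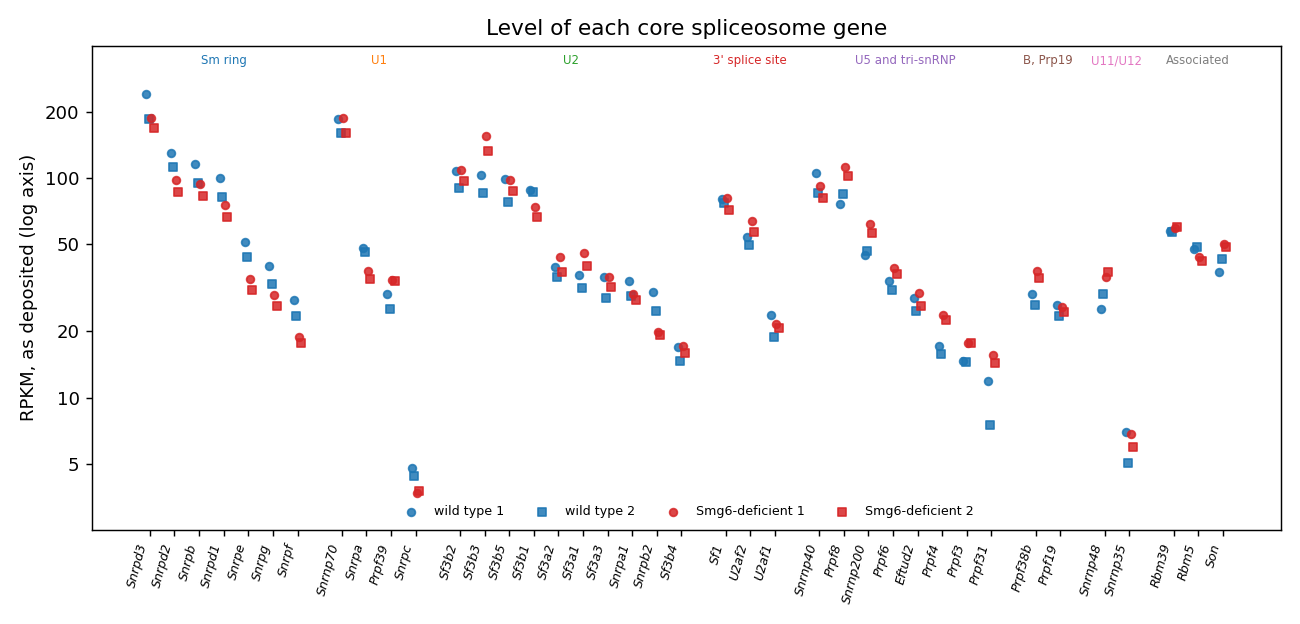
RPKM as deposited (log axis) of each core gene in the 4 libraries, grouped by role and ordered by wild-type mean within a role; colours mark the genotype and shapes the replicate. Snrpd3 and Snrnp70 lie at the top, and Snrpc is lowest at 4.58 RPKM in wild type.

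The fold changes of the core genes rose with transcript length, with a Spearman rho of 0.61 over the 39 genes against 0.20 over 20499 tested genes with a length. These are descriptions across genes, which share their libraries. Of 16 core genes with a longest coding transcript under 2000 bases, 1 rose and 5 fell, with a median log2 fold change of -0.16. Among all tested coding genes of that length, 15.5% rose and 24.9% fell, with a median of -0.08. Of the 23 longer core genes, 12 rose and 2 fell, with a median of 0.26, against 27% and 18.6% of longer coding genes and a median of 0.09. Between the wild-type replicates, the log2 ratio of replicate 1 over 2 had a rho of -0.43 with length over the core genes and -0.063 over all tested genes. Between the Smg6-deficient replicates the rho was -0.086 over the core genes and 0.0078 over all tested genes.

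With the length correction, 12 core genes were higher and 2 lower, where 21.9% of all tested genes were higher and 18.1% lower. The 2 lower genes were Sf3b1 and Snrpb2. The calls that ended were those of Snrpd1, Snrpd2, Snrpe, Snrpf, Snrpa and Son. The U5 and tri-snRNP group still had 6 of 8 genes higher, from 0.25 for Prpf6 to 0.67 for Prpf31, and 0 lower (0 also at an unadjusted edgeR p under 0.05). Correcting for GC content as well gave 13 higher and 2 lower core genes, Sf3b1 and Snrpa, against 21.1% and 17.3% of all tested genes. With the gene length that the authors' values imply, 11 were higher and 4 lower, against 21.3% and 18.3%. Prpf3 and Prpf6 then just missed the threshold (edgeR adjusted p = 0.0515 and 0.0511), and Snrpe, Sf3b1, Snrpb2 and Snrpc were lower.

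**Figure D4:**
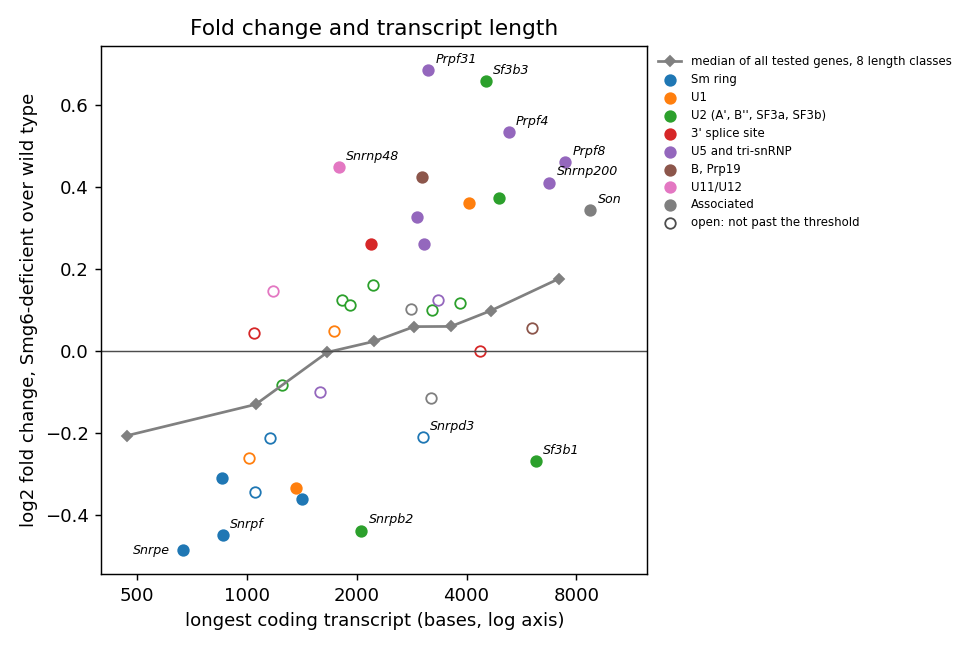
Log2 fold change of each core gene (Smg6-deficient over wild type, coloured by role, filled where the edgeR adjusted p was under 0.05) against the length of its longest coding transcript (log axis); the grey line joins the medians of all tested genes in 8 length classes, from -0.21 to 0.18. Snrpe and Snrpf lie below the line among short genes, Prpf31 and Sf3b3 above it, and Sf3b1 far below it among long genes.

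The 17 core genes with an annotated NMD transcript moved in both directions in their whole-gene counts. Of them, 6 rose (Prpf3, Prpf31, Prpf38b, Prpf39, Son and U2af2) and 3 fell (Sf3b1, Snrpa and Snrpe), with a median log2 fold change of 0.05. Of the 22 without one, 7 rose and 4 fell, with a median of 0.12. Over all tested coding genes, 33.3% of the 4152 with such a transcript rose and 14.6% fell, with a median of 0.15. Of the 12303 without, 20.7% rose and 22.3% fell, with a median of 0.00. Of the 9 genes whose stops are printed above, Prpf39, Prpf38b and Prpf3 rose, Sf3b1 and Snrpa fell, and Snrpb, Rbm39, Snrnp70 and U2af1 did not pass the test. No test of the classes was made.

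Other genes of the spliceosome, in 6 lists, numbered 75, and 15 of them rose and 14 fell. These shares, 20% and 18.7%, are near those of all tested genes, 20.5% higher and 19.2% lower. The ring of Lsm proteins, the counterpart of the Sm ring on U6, had 4 of 7 genes that fell and 0 that rose (0 also at an unadjusted edgeR p under 0.05, by DESeq2 and by limma-voom), with a median log2 fold change of -0.44. With the length correction 1 of the 7 fell. Lsm3 had a log2 fold change of -0.47 (edgeR adjusted p = 0.0047), which became -0.18 and did not pass with that correction. Among 16 further U1 and U2 associated genes, 8 rose and 1 fell, which is 50% and 6.25%. Prpf40b, a U1-associated protein, rose most, by 1.33 on the log2 scale (edgeR adjusted p = 0.0002). Puf60, a U2AF-related factor, rose by 0.80, and Smndc1, a survival motor neuron related splicing factor, by 0.63 (edgeR adjusted p = 0.0032 and 0.0014). Cactin and the helicase gene Dhx38 rose by 0.68 and 0.55. Htatsf1 and Zrsr2 fell, with log2 fold changes of -0.88 and -0.63, and both are on the X chromosome, where 590 of 1040 tested genes were lower. None of the 39 core genes is X-linked. Snrnp27 of the tri-snRNP and Pdcd7 of the minor spliceosome fell, with log2 fold changes of -0.42 and -0.38. With the length correction Snrnp27 was -0.17 and did not pass the test.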

How the data were processed

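RNA was extracted with TRIzol and made into TruSeq v2 libraries, which do not mark strand, and read as single 50-base reads, per the labels' protocols. The submitters' processing notes name TopHat2 2.0.9 and mm10. Not given in the sources used here are the counter, the annotation and the rule for reads that align more than once. The authors deposited whole-number counts of reads per gene, and RPKM values, which divide those counts by library size and by a gene length. Count totals were 137643993 and 130888768 for wild type and 155391181 and 137937779 for Smg6 deficient. Replicates differed by more than counting error: the chi-square divided by its degrees of freedom was 56.7 and 32.1.

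Symbols, transcripts and lengths came from GENCODE M21, which gave a symbol to 95.2% of identifiers. Counts passing filterByExpr (minimum count 10) entered the quasi-likelihood F test of edgeR 4.0.16 in R 4.3.3, with TMM factors and a model of genotype alone. Benjamini-Hochberg adjustment covered 20895 genes, and the threshold was 0.05. An SE was obtained by dividing the size of the log2 fold change by the square root of F. With 2 residual degrees of freedom, the common coefficient of biological variation was 0.118. For the length correction, log2 CPM less the mean of the gene over the libraries was fitted in each library by a spline (5 degrees of freedom) on log2 length. The fitted value was used as an offset. Length was that of the longest coding transcript, or of the longest transcript where a gene has no coding one. Genes without a length were given the median. Alternatives used other scalings and filters, DESeq2 1.42.0, limma 3.58.1 on counts (voom) and on log2 of RPKM plus 1 or 0.1, a replicate block, length and GC corrections, and each library left out. The correction with the authors' implied gene length was chosen after seeing the data. The procedure was checked on simulated counts with the same spread for every gene and no trend with length. That check does not cover the length trend or the uneven spread of these data.

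The members and lists were chosen with earlier results of these data known. Values in every library are given for each core gene past the threshold and for the highest of each role by RPKM. Of other spliceosome and assembly genes, up to 5 in each direction with the smallest adjusted p are named.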

Additional observations from a re-analysis of the deposited data

How the results depend on the processing

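Of 18 alternatives, Sf3b3 and Prpf4 passed the test in all 18, with log2 fold changes of 0.55 to 0.76 and 0.43 to 0.56. The largest losses came from leaving out a Smg6-deficient library, which leaves 1 library in that group, assumed to vary like the wild-type pair. Over the 4 omissions the core genes numbered 3 to 16 higher and 0 to 12 lower, all tested genes 2540 to 5435 higher and 2206 to 4883 lower, other spliceosome genes 8 to 24 higher and 2 to 20 lower, and assembly genes 1 to 3 higher and 1 to 8 lower. On log2(RPKM + 1) and log2(RPKM + 0.1), limma called 6 and 3 core genes higher and 4 and 4 lower, 2700 and 2643 of all tested genes higher, and 1 assembly gene in each direction in both. The cause of these changes was not tested. Core genes lower numbered 2 with the length correction, with length and GC, and with length and the replicate block together, and 4 with the authors' implied length. Assembly genes higher numbered 5 with length, with length and block, and with the authors' length. Assembly genes lower numbered 5 with upper-quartile factors, library size alone, the 50-count filter and the DESeq2 Wald test, and 1 with length and GC, where other spliceosome genes were 23 higher and 7 lower. Of the 20 core calls, 2 changed sign, both with length and GC: Snrpd1 (0.13) and Snrpf (0.027).

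The replicate block gave 13 core genes higher and 9 lower, and 5074 and 4613 of all tested genes. The block added Snrpg and Snrpc to the lower core genes (edgeR adjusted p = 0.0334 and 0.0454) and ended no core call. The labels do not say whether libraries with the same replicate number were handled together. The differences of replicate 1 minus replicate 2 in the 2 genotypes correlated at 0.155 over the tested genes. All other changes of sign were in genes that did not pass the test, except Gemin2, at 0.035 with length and GC. The log2 fold change of Sf1 was -0.0084 with DESeq2 size factors and in the Wald test, -0.034 with upper-quartile factors, -0.055 with library size alone, -0.042 with the 50-count filter, -0.044 on both RPKM scales, -0.068 with length, -0.069 with length and block, -0.21 with length and GC, and -0.11 with the authors' length. With library size alone, Snrnp70 was -0.0080, U2af1 -0.012 and Prpf19 -0.00048. With length, Snrpb was 0.0046, Snrpa1 0.12, Snrnp40 0.035 and Prpf19 -0.075, and with the block added 0.0085, 0.12, 0.038 and -0.073. With length and GC, Snrpc was 0.083, Snrpa1 0.23, Sf3a2 -0.060, Snrnp40 0.12 and Prpf19 -0.13. With the authors' length, Snrpd3 was 0.096, Eftud2 -0.036, Snrnp40 0.064, Prpf19 -0.055 and Rbm39 -0.022. Over the libraries left out, log2 fold changes ran from -0.052 to 0.054 for Sf1, -0.0067 to 0.25 for Sf3a3, -0.024 to 0.26 for Sf3b5, -0.049 to 0.35 for Snrnp35, -0.22 to 0.012 for Snrnp40, -0.036 to 0.13 for Snrnp70 and -0.090 to 0.17 for U2af1. Among the core genes Snrnp35 had the fewest counts and, after Prpf31, the widest error (SE 0.15), which limits what these libraries can show for it.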

Other observations

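Of 19 tested genes for assembly and maturation (the SMN complex, the Prmt5 methylosome and the factors that cap, import and recycle snRNPs), 3 rose and 3 fell, which is 15.8% in each direction, where 20.5% of all tested genes rose and 19.2% fell. Their median log2 fold change was -0.13. Gemin5, the SMN complex subunit that recognises snRNA, rose from 118 ± 4.35 to 168 ± 10.2 CPM (mean ± SD, n = 2 each; a log2 fold change of 0.51, SE 0.08, adjusted p = 0.0042 by edgeR). Gemin4 rose by 0.41 on the log2 scale, and Prmt5, the arginine methyltransferase that modifies Sm proteins before ring assembly, by 0.35 (edgeR adjusted p = 0.0280 and 0.0240). Gemin8, an X-linked subunit, fell from 8.45 ± 0.34 to 3.84 ± 0.14 CPM (a log2 fold change of -1.14, SE 0.13, adjusted p = 0.0011 by edgeR). Larp7, which binds 7SK and U6 RNA, and Gemin2, which binds Sm proteins during assembly, fell with log2 fold changes of -0.36 and -0.25 (edgeR adjusted p = 0.0186 and 0.0492). The fall of Gemin2 did not pass with the length correction, at -0.12.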
